A study of Mus musculus with 3 samples.

Results

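The AP-1 and Egr immediate early transcription factors Fos, Fosb, Fosl1, Fosl2, Jun, Junb, Jund, Atf3, Egr1 and Egr2 were followed in cultured mouse lymphatic endothelial cells. All probe sets that the platform annotation assigns to one of these 10 genes were taken, which gave 15 of the 45101 probe sets on the array and 10 of the 18194 genes that had a probe set of their own. The cells, called imLECs, were sorted from the skin of ImmortoMice (H-2Kb-tsA58). Their transgene is a thermolabile form of the SV40 large T antigen, driven by the H-2Kb promoter, which interferon-gamma induces. The study has 1 group of 3 cultures, 1 each at passages 13, 14 and 18, grown at 33 °C with interferon-gamma and then kept for 3 days at 37 °C without it. All 3 cultures thus carried the transgene and had been through the same temperature shift, and the series has no unshifted or wild-type culture. Each array measured 1 culture, so a passage has no replicate of its own, and the spread over the 3 arrays mixes passage with differences between cultures and arrays.

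AP-1 is a dimer of leucine zipper proteins. Jun proteins (Jun, Junb, Jund) pair with each other or with Fos proteins (Fos, Fosb, Fosl1, Fosl2), and Atf3 pairs with Jun proteins or with itself. Fos, Fosb, Jun, Junb, Atf3, Egr1 and Egr2 are classic immediate early genes, whose transcription rises within minutes of a mitogen or a stress and fades again, whereas Fosl1 and Fosl2 come later and last longer, and Jund is expressed in resting cells too. Egr1 and Egr2 are zinc finger proteins that bind GC-rich sites, and in endothelium Egr1 is known for its response to injury and shear stress.

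The labelled cell type was checked first. All 8 pan-endothelial and all 7 measured lymphatic endothelial markers were above the floor on all arrays, Prox1 only narrowly at passage 14 (log2 5.11 against a floor of 4.99). Leukocyte markers passed in 2 of 7 cases and keratinocyte markers in 2 of 6. Fibroblast and mural markers passed in 4 of 10, and 3 of 10 were below the floor on all arrays. Among those that passed, Acta2 read 1467, 308.0 and 5289 intensity units at passages 13, 14 and 18. Tagln read 4535, 618.6 and 1756. The floor was set per array at the 95th percentile of 39 tissue-restricted genes not known from endothelium, such as albumin, at 29.5, 31.8 and 33.0 intensity units at passages 13, 14 and 18. The arrays had nearly the same median intensity, at 25.7 to 26.3. The passage 18 array stood apart in the Gapdh 3'/5' signal ratio, a sign of RNA integrity and of how far amplification reached, with 19.4 against 8.59 at passage 13 and 7.10 at passage 14. The Actb ratio differed less, at 1.42 against 1.18 and 1.20.

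Of the 10 factors, 7 were above the floor on all 3 arrays, beside 10008 of all 18194 genes. The 7 factors were Fos, Fosl1, Fosl2, Jun, Jund, Atf3 and Egr1. Fosb, Junb and Egr2 were below it on all 3, and their 4 probe sets read between 8.15 and 24.2 intensity units, which sets only an upper limit on these transcripts. The remaining 11 probe sets, 1 or 2 per gene, divided by their order over the arrays. Those of Fos, Jun, Jund and Egr1 (6 of 6) were lowest at passage 14, and those of Fosl1, Fosl2 and Atf3 (5 of 5) were highest at passage 14 and lowest at passage 18. This division was made after the values were seen and is a description of 3 cultures. Over all 10644 genes with a mean above the mean floor (the tested genes), 38.9% were lowest at passage 14, and 25.2% were highest at passage 14 and lowest at passage 18, so either order is common on these arrays. On their brighter probe sets Fos, Jun and Jund were also highest at passage 18, an order that 25.5% of tested genes had.

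**Figure D1:**
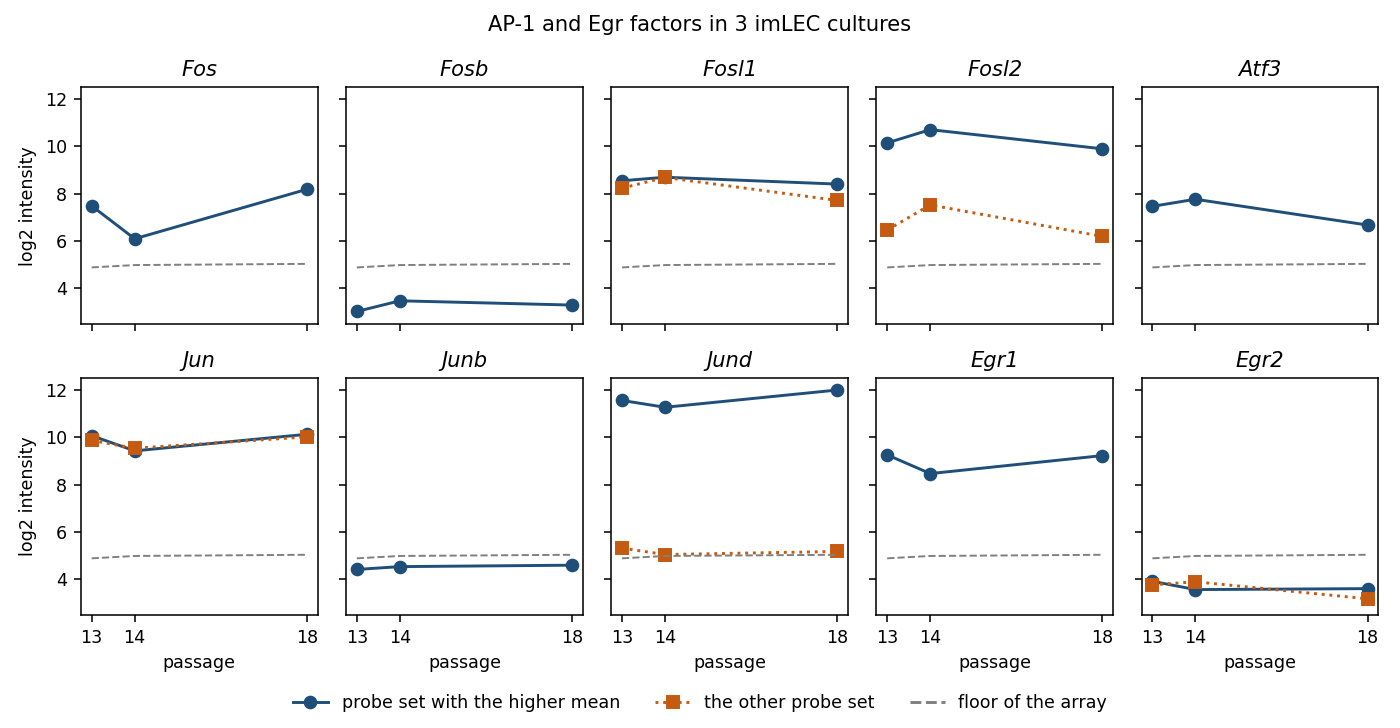
Log2 signal intensity of every probe set of the 10 factors (vertical axis) at passages 13, 14 and 18 (horizontal axis), with 1 culture per point and the floor of each array dashed. Fos, Jun, Jund and Egr1 dip at passage 14, Fosl1, Fosl2 and Atf3 peak there, and Fosb, Junb and Egr2 lie under the floor.

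The start site regions of 5 of these genes are shown as examples that hold a match to an element marked below. They are the 250 bases before the RefSeq start site (build GRCm38.p6), written in the gene's own direction. Fos and Jun were lowest at passage 14, Fosl2 and Atf3 were highest there, and Egr2 was below the floor. Capitals mark matches to TGACG (the core of the cAMP response element), TGACATCA (the element known from the JUN promoter in human cells), GCGNGGGCG (an Egr site) and the CArG box bound by serum response factor.
Fos (chr12:85473640-85473889, plus strand): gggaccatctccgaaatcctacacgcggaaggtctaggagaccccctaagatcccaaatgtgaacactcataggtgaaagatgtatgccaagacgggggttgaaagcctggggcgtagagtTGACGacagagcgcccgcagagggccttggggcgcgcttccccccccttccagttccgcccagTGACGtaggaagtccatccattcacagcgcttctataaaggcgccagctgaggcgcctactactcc
Jun (chr4:95052223-95052472, minus strand): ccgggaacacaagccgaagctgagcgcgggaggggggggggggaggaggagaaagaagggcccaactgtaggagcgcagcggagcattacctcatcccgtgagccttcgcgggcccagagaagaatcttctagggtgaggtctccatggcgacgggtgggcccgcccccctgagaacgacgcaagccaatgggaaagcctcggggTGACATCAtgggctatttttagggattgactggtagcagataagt
Fosl2 (chr5:32136222-32136471, plus strand): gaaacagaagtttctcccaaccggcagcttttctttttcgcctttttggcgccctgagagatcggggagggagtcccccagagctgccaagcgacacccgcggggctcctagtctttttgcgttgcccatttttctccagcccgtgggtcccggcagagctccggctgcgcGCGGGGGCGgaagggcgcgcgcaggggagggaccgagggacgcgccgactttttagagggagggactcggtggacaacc
Atf3 (chr1:191183334-191183583, minus strand): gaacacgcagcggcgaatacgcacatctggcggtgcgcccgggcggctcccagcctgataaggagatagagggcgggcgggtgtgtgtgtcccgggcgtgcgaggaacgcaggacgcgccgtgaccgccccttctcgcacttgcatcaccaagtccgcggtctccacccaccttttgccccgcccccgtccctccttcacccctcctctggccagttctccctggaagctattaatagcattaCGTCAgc
Egr2 (chr10:67537619-67537868, plus strand): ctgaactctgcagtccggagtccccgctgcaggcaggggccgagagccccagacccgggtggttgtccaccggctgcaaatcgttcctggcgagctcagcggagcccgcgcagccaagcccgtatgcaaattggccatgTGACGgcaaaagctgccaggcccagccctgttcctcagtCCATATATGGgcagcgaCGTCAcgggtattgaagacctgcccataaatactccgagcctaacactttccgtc
Both strands were searched in 12 start site regions of 8 of the 10 genes, and Egr1 and Fosl1 were not searched. Egr2 has 5 of these regions. Those starting at bases 67537619, 67537620 and 67537680 of chromosome 10 overlap and hold the same TGACG and CArG sites. Counts over the 12 regions repeat these sites, so the regions are not independent. The core TGACG was found in 7 of the 12 regions, which belong to 5 of the 8 genes, and in 17.8% of all 32851 mouse start site regions. In Fos it lay at bases -129 to -125 and -66 to -62 from the start, beside a TATAAA at -33 to -28. In Atf3 it lay at -7 to -3. TGACATCA was found in 1 of the 12 regions, that of Jun, at -45 to -38, and in 2.93% of all regions. An Egr site was found in 2 of the 12, in Fosl2 at -79 to -71 and in Fosb, against 4.70% of all regions. The CArG box was found in 4 of the 12, all of Egr2 and so in 1 of the 8 genes, against 1.47% of all regions. In the region printed it lay at -72 to -63. The full cAMP response element TGACGTCA and the AP-1 element TGANTCA were in none of the 12 regions, against 1.55% and 6.75% of all regions. The full element holds the core on both strands. Only the 250 bases before a start site were searched, so a missing match does not show that a gene lacks the element. A match is a stretch of letters, not a measured binding site, and genes on both sides of the passage 14 division carried the core.

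Among the Fos proteins, Fos itself had the widest spread. Its 1 probe set read 179.4, 68.48 and 291.4 intensity units at passages 13, 14 and 18, or 7.26 ± 1.06 on the log2 scale (mean ± SD, n = 3). The passage 14 culture was low and the passage 18 culture high. At passage 14 Fos was 2.62-fold below passage 13, and at passage 18 it stood 1.62-fold above passage 13 and 4.26-fold above passage 14. A range at least as wide as that of Fos, 2.09 log2 units, was seen in 2.83% of tested genes, whose median range was 0.48.

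The later Fos proteins ran the other way. Fosl2 (Fra-2) read 1136, 1674 and 954.3 intensity units at passages 13, 14 and 18 on its brighter probe set, or 10.25 ± 0.42 on the log2 scale (mean ± SD, n = 3). Its second probe set read 88.42, 184.2 and 73.41. Both were highest at passage 14, by 1.47-fold and 2.08-fold over passage 13, and lowest at passage 18, by 1.75-fold and 2.51-fold under passage 14. The probe sets thus gave the same order over the arrays and differed in size, and only the second crossed 2-fold.

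Fosl1 (Fra-1) read 375.6, 414.6 and 339.8 intensity units on one probe set at passages 13, 14 and 18, and 301.8, 411.7 and 211.5 on the other. The order was again highest at passage 14 and lowest at passage 18 on both. On the first the whole range was 0.29 log2 units, a range that 73.7% of tested genes reached, and the second had a range of 0.96. Fosb read 8.15, 11.2 and 9.87 intensity units, all below the floor, so no order can be read from it.

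Atf3, a stress-induced factor that often acts as a repressor, had 1 probe set, at 177.5, 217.9 and 102.8 intensity units at passages 13, 14 and 18, or 7.31 ± 0.56 on the log2 scale (mean ± SD, n = 3). The passage 18 culture was low. At passage 18 Atf3 was 1.73-fold below passage 13 and 2.12-fold below passage 14, and at passage 14 it was 1.23-fold above passage 13. A range at least as wide was seen in 14.2% of tested genes.

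Of the Jun proteins, the partners of the Fos proteins in the AP-1 dimer, Jun was measured by a pair of probe sets. One read 1072, 689.3 and 1120 intensity units at passages 13, 14 and 18, and the other 934.9, 743.6 and 1040. Both placed the passage 14 culture below the others, 1.56-fold and 1.26-fold lower than passage 13, with passages 13 and 18 close together. Passage 18 was 1.04-fold and 1.11-fold higher than passage 13.

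Jund, which is known to restrain growth in fibroblasts, read 3028, 2474 and 4093 intensity units on its brighter probe set, or 11.61 ± 0.37 on the log2 scale (mean ± SD, n = 3). It was lowest at passage 14 and highest at passage 18, 1.65-fold above passage 14. Its second probe set read 40.02, 33.14 and 36.19, close to the floor, and placed passage 13 highest, so for Jund the probe sets agree on the low value at passage 14 and not on the high one. Junb read 21.4, 23.3 and 24.2 intensity units, below the floor on all arrays.

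Egr1 read 614.9, 353.8 and 600.6 intensity units at passages 13, 14 and 18 on its 1 probe set, or 8.99 ± 0.45 on the log2 scale (mean ± SD, n = 3). Passages 13 and 18 were close and passage 14 was low. At passage 14 Egr1 was 1.74-fold below passage 13, and it was 1.70-fold higher at passage 18 than at 14, while passages 18 and 13 differed by -0.03 log2 units. A range as wide as its 0.80 was seen in 25.2% of tested genes. The Egr2 probe sets read 9.06 to 15.1 intensity units, all below the floor.

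**Figure D2:**
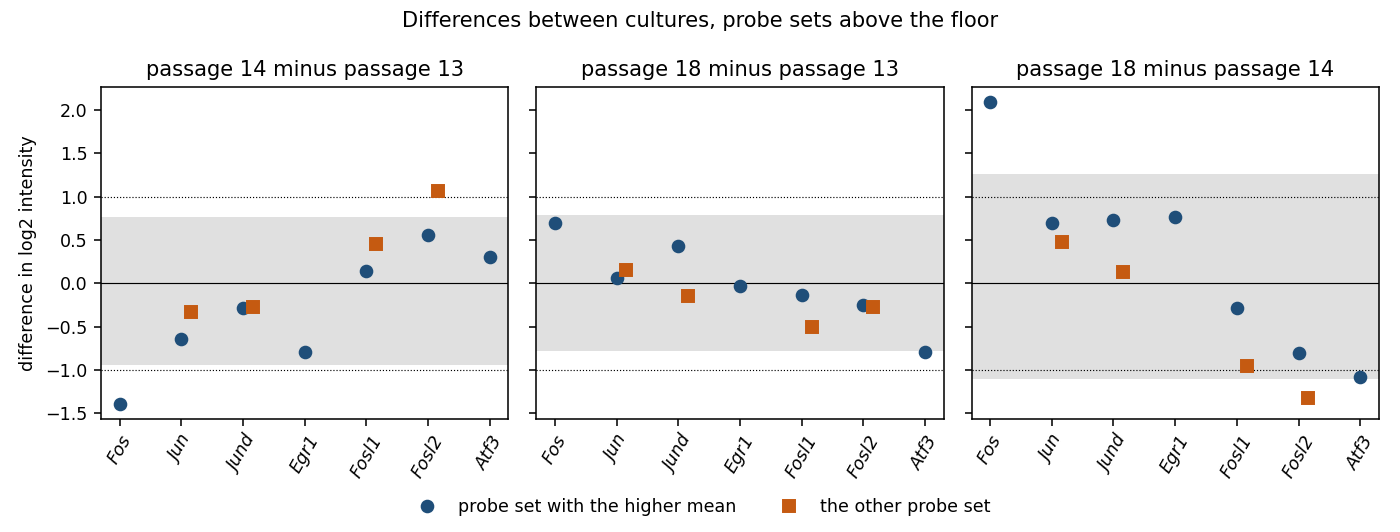
Difference in log2 intensity (vertical axis) between pairs of cultures for the 11 probe sets that passed the floor on each array. The grey band holds the middle 90% of tested genes, and dotted lines mark 2-fold. Fos lies outside the band at passage 14 against 13 (-1.39) and at passage 18 against 14 (2.09), the second Fosl2 probe set in the same panels (1.06 and -1.33), and Atf3 at passage 18 against 13 (-0.79).

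Counted by the probe set with the higher mean, 1 of the 7 tested factors differed at least 2-fold at passage 14 against 13 (Fos, lower), where 6.80% of tested genes did and 4.27% were lower. At passage 18 against 13 it was 0 of 7, against 5.94% of tested genes. At passage 18 against 14 it was 2 of 7 (Fos higher, Atf3 lower), against 14.0% of tested genes, 7.95% higher and 6.01% lower. The 3 comparisons share cultures and are not independent, and with 1 culture on each side they have no test. The middle 90% of tested genes lay between -0.93 and 0.75 at passage 14 against 13, between -0.77 and 0.78 at passage 18 against 13 and between -1.09 and 1.25 at passage 18 against 14. On the same probe sets, Fos lay outside the first and the third of these ranges and Atf3 just outside the second, at -0.79, while Jun, Jund, Egr1, Fosl1 and Fosl2 lay inside all 3. The second Fosl2 probe set lay outside the first and the third, at 1.06 and -1.33.

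None of the factors passed a trend with passage number, which was the only test run on these samples. In limma with Benjamini-Hochberg adjustment over all tested genes, 0 of 7 factors passed, and 0 had an unadjusted p under 0.05. Over all tested genes 0% passed, and 3.63% had an unadjusted p under 0.05. The slopes ran between -0.19 ± 0.08 log2 units per passage for Atf3 and 0.25 ± 0.18 for Fos (slope ± SE), with limma adjusted p between 0.904 and 0.948. A straight line over passages cannot describe a dip or peak at passage 14, and these fits leave 1 residual degree of freedom per gene, so the missing calls do not show equal levels. Without the passage 18 culture the slope of Fos was -1.39, of Jun -0.64 and of Fosl2 0.56.

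The other leucine zipper factors that pair with AP-1 proteins or bind like them were present in most cases. Above the floor on all arrays were 14 of 17 measured genes, beside 10008 of all 18194 genes. Batf, Batf2 and Batf3, known from lymphocytes and myeloid cells, were below it on all. Maf had the widest range of this list, with log2 levels of 7.38, 6.04 and 9.0 at passages 13, 14 and 18. The small Maf protein gene Maff differed by -1.67 log2 units at passage 14 against 13 and by -0.84 at passage 18 against 13. Jdp2, an AP-1 repressor named here as an example outside the naming rule, read 8.04, 7.59 and 8.93. These 3 genes were lowest at passage 14, as were 5 of the 14 tested genes of the list, against 38.9% of all tested genes. Another 5 of 14 were highest there, against 3882 of 10644, so the list lay near the share of all tested genes in both. Atf2 read 9.93, 10.17 and 9.98, Atf4, a factor of the amino acid and unfolded protein responses, 9.89, 10.11 and 10.77, and Atf5 8.29, 8.20 and 7.29. The list as a whole lay at a median of 0.02 log2 units at passage 14 against 13, beside -0.01 for all tested genes.

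Egr1 acts with the co-repressors Nab1 and Nab2, and is known to induce Nab2. Nab1 had log2 levels of 10.94, 11.20 and 10.50 at passages 13, 14 and 18, and Nab2 of 5.81, 5.39 and 5.41. Nab2 thus read highest at passage 13, and Nab1 at passage 14. Egr3 read 6.89, 6.90 and 6.56 and Egr4 4.96, 5.18 and 5.19, the last only just above the floors of 4.89, 4.99 and 5.04.

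Upstream, Fos and Egr1 are switched on by serum response factor with its ternary complex partners (Elk1, Elk3, Elk4) and by the MAP kinases. All 15 measured genes of this list were above the floor on all arrays, beside 10008 of all 18194 genes. The median difference of the list was -0.01 log2 units at passage 14 against 13 and -0.11 at passage 18 against 14. Srf had log2 levels of 9.22, 8.89 and 9.15 at passages 13, 14 and 18, Elk1 of 7.23, 7.31 and 6.60 and Elk3 of 10.80, 11.14 and 10.69. Mrtfa, the actin-regulated co-activator of Srf, had the widest range of the list at 6.85, 5.71 and 7.37 and was low at passage 14. The kinase gene Rps6ka3 was high there, at 9.01, 9.61 and 8.24.

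Other immediate early genes were more often lowest than highest at passage 14, and more often highest than lowest at passage 13. Of 36 measured, 31 were above the floor on all arrays, beside 10008 of all 18194 genes, and 32 were tested. Passage 14 read below passage 13 for 24 of 32, and the median difference was -0.26 log2 units. Over all tested genes it was 5449 of 10644 and -0.01. At least 2-fold lower were 3 of 32 (Ptgs2, Gadd45b and Ccn2) and at least 2-fold higher 2 of 32 (Rgs2 and Gem), where 4.27% and 2.54% of tested genes passed. Lowest at passage 14 were 18 of 32, against 38.9% of tested genes. Highest at passage 13 were 16 of 32, against 2772 of 10644. Passage 18 also read below passage 13 for 21 of 32, against 5422 of 10644. Passage 18 read above passage 14 for 19 of 32, against 5405 of 10644, with a median of 0.13 log2 units beside 0.01. The low values at passage 14 thus stand out mainly against passage 13. At passage 14 against 13, fibroblast and mural markers had a median of -1.88 and cell cycle genes of 1.28 log2 units. The part of either in this list was not tested.

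Gadd45b, a stress and growth arrest gene, had log2 levels of 7.46, 6.39 and 8.55 at passages 13, 14 and 18 and so had the order of Fos. Ccn1 and Ccn2, secreted matricellular proteins named as examples, read 11.73, 10.97 and 11.73 and 12.53, 11.41 and 12.58, close to the shape of Egr1. Rgs2, a regulator of G protein signalling, went against them at 7.71, 9.96 and 8.94. Dusp1, the MAP kinase phosphatase that is induced together with Fos, hardly differed between the cultures, at 11.14, 11.11 and 11.10. Ier2, Ier3 and Ier5 read 6.0, 5.15 and 5.41, 9.11, 9.0 and 8.71, and 10.59, 10.52 and 10.46.

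Most known AP-1 target genes above the floor were lowest at passage 18. Of 16 measured genes 11 were above the floor on all arrays, beside 10008 of all 18194 genes. Lowest at passage 18 were 8 of 11, against 37.7% of tested genes. The difference between passages 18 and 13 was negative in 9 of 11, against 5422 of 10644 tested genes. Its median was -0.84 log2 units, beside -0.01 for all tested genes. At least 2-fold lower were 4 of 11 (Plau, Timp1, Ccl2 and Tgfb1), where 2.74% of tested genes were. In the limma trend 0 of 11 passed after Benjamini-Hochberg adjustment. An unadjusted p under 0.05 was seen in 5 of 11, against 3.63% of tested genes. Endothelial markers differed in the same direction: between passages 18 and 13 the median was -0.50 log2 units for 8 pan-endothelial genes, 8 of 8 being lower, and -0.92 for 7 lymphatic genes, 6 of 7 being lower. The Gapdh 3'/5' ratio of the passage 18 array was 19.4. The part of either in the differences of the target genes was not tested.

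Plau, the urokinase gene, had log2 levels of 11.49, 11.80 and 10.38 at passages 13, 14 and 18, and the chemokine gene Ccl2 had 10.09, 11.15 and 8.67. Both were highest at passage 14 and lowest at 18, the order of Fosl1, Fosl2 and Atf3. The urokinase receptor Plaur read 8.67, 8.15 and 8.07 and the cyclin gene Ccnd1 12.42, 12.33 and 11.74. Ereg, an EGF receptor ligand, had the widest range of the list at 9.84, 6.71 and 8.96 and was lowest at passage 14. The AP-1 responsive genes Mmp9, Mmp10, Mmp13 and Il6 were below the floor on all arrays.

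Known Egr1 target genes had both orders, and were more often lowest than highest at passage 14. Of 8 measured genes 6 were above the floor on all arrays, beside 10008 of all 18194 genes, and all 8 were tested. Lowest at passage 14 were 5 of 8, against 38.9% of tested genes, and highest there 2 of 8, against 3882 of 10644. The median difference at passage 14 against 13 was -0.71 log2 units, beside -0.01 for all tested genes. In that comparison 3 of 8 were at least 2-fold lower and 2 of 8 higher, where 4.27% and 2.54% of tested genes were. The tissue factor gene F3 had log2 levels of 7.27, 6.26 and 8.15 at passages 13, 14 and 18, Pdgfa of 8.93, 7.71 and 8.56, and Fgf2 of 4.99, 3.52 and 6.49, the middle value below the floor. These were lowest at passage 14, as was Egr1. Pdgfb, at 5.30, 6.40 and 3.33 with the last value below the floor, and Flt1, at 6.77, 7.85 and 6.35, were highest there. Tgfb1 stands in both target lists.

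**Figure D3:**
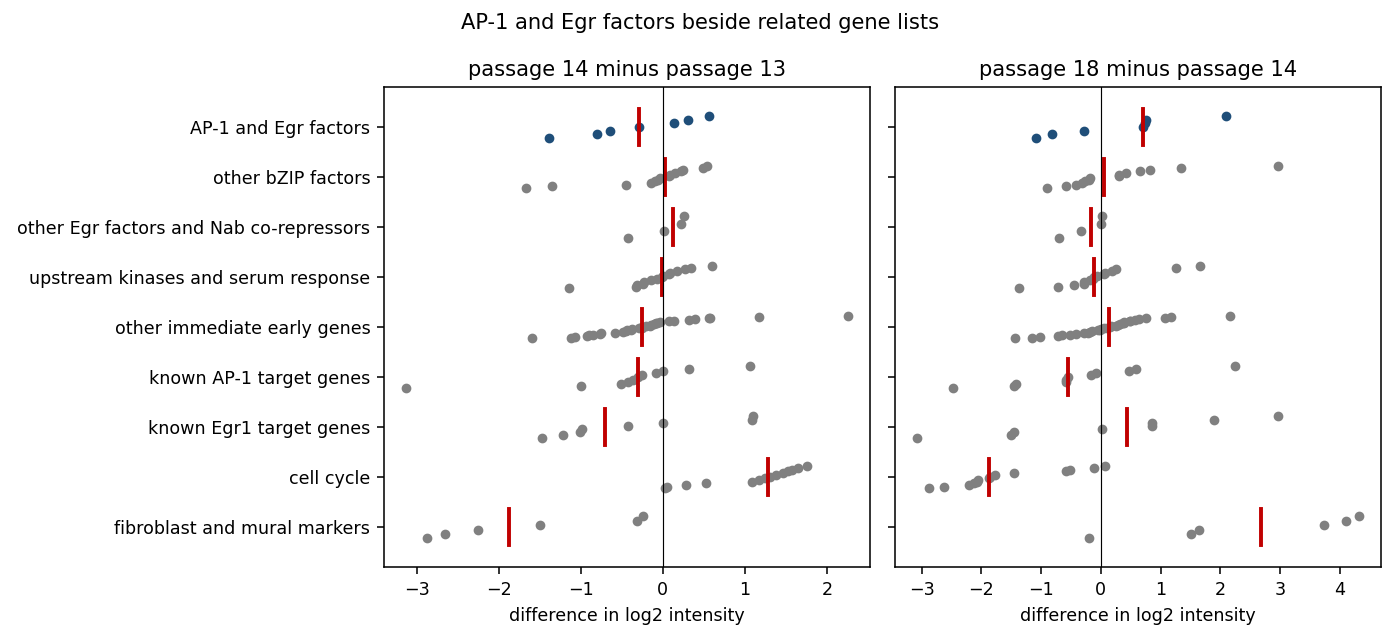
Difference in log2 intensity (horizontal axis) for each tested gene of 9 lists, with 1 point per gene and the list median as a red bar, at passage 14 against 13 (left) and passage 18 against 14 (right). The 7 AP-1 and Egr factors spread to both sides of 0, with medians of -0.29 and 0.70, cell cycle genes lie to the right and then to the left, and fibroblast and mural markers the reverse.

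Proliferation and mesenchymal genes differed between the same cultures. Cell cycle genes peaked at passage 14 in 13 of 14 cases. Their median difference was 1.28 log2 units against passage 13, positive in 14 of 14, where 5138 of 10644 tested genes were. For passage 18 against 14 it was -1.87, negative in 13 of 14, where 5198 of 10644 were. Mki67 read 7.78, 9.35 and 7.30 at passages 13, 14 and 18. Fosl1, Fosl2 and Atf3 had this order. Fibroblast and mural markers dipped at passage 14. Their median difference was -1.88 against passage 13, negative in 6 of 6 tested genes, where 5449 of all 10644 were. For passage 18 against 14 it was 2.68, positive in 5 of 6, where 5405 of 10644 were. Col1a1, a chain of type I collagen, read 8.04, 6.54 and 10.26. Fos, Jun and Jund had that order, and Egr1 shared the low value at passage 14. Over all 10 measured fibroblast and mural markers the summed intensity was 6540, 1190 and 8920 at passages 13, 14 and 18, most of it from the contractile genes Acta2 and Tagln, with 4 above the floor on all arrays and Pdgfra, Lum and Rgs5 below it on all. Tagln read 12.15, 9.27 and 10.78 on the log2 scale and so was not highest at passage 18, unlike Acta2 at 10.52, 8.27 and 12.37. The part of these genes in the differences of the AP-1 and Egr factors was not tested. In RNA from a whole culture, fewer cells of a type and less RNA per cell cannot be told apart.

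The tested genes whose levels followed Fos most closely over the 3 arrays were Pltp, Col4a6 and Pcdhb17. Their log2 profiles, each centred on its own mean, differed from that of Fos by root mean squares of 0.018, 0.025 and 0.030. Pltp, a phospholipid transfer protein gene, read 10.55, 9.12 and 11.25 at passages 13, 14 and 18, and Col4a6 was below the floor at passage 14, at 3.79. Closest to Egr1 were Cpeb4, Mob3a and Timp2, at 0.0011, 0.0038 and 0.011, and Timp2, an inhibitor of matrix metalloproteinases, read 12.60, 11.82 and 12.59. With 3 arrays such likeness describes a shape that many of the 10644 tested genes can share.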

How the data were processed

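RNA of 3 imLEC cultures was amplified, biotin-labelled and hybridised to 1 one-colour array each, per the labels. The deposited intensity values are linear signals per probe set. MAS5 is named in the submitters' processing notes, without role or version, and for the other steps the sources used here name nothing. The arrays had like medians and were not scaled again.

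Intensities were taken to log2. Platform annotation gave 1 gene for 34958 probe sets, several for 932 and none for 9211, and Entrez identifiers matched GRCm38.p6 symbols for 34754. A gene was represented by its probe set of highest mean. The trend with passage was fitted in limma 3.58.1 (R 4.3.3) with an intensity trend, on 10644 genes with a mean above the mean floor (log2 4.97). A trend was called at an adjusted p under 0.05. The fit was also tested on simulated data, whose noise was below the median SD of the tested genes (0.25 log2 units). That test does not show how the fit performs on these arrays. The p-values measure only the spread among these samples, and the number of arrays limits precision.

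The genes and lists were chosen with earlier results of these data known. Named are all 10 factors and the 3 nearest profiles of Fos and Egr1. In each other list given gene by gene, the first 3 members above the floor and the 2 of widest range are named. Other genes, among them Dusp1 and Tagln, are examples outside this rule or belong to a count given in the text. Alternatives were the normalization, an offset of 16, the filter, the floor, the choice of probe set and leaving out each culture.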

Additional observations from a re-analysis of the deposited data

How the results depend on the processing

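Each of the 7 factors above the floor kept the sign of its 3 differences between cultures under quantile normalization, median centring, an offset of 16 and the median over the probe sets of each gene. The filter on dim genes, the floor and the omission of _x_at and _s_at sets cannot change these differences. With 16 added before the log, 1 factor (Fos) in place of 2 differed at least 2-fold at passage 18 against 14, since Atf3 came to -0.98. With the floor at the highest gene of its list, 6 factors in place of 7 were above it, as Fos at passage 14 (6.10) fell under 6.14. With the median of its probe sets, Fosl1 had differences of 0.30, -0.33 and -0.62 in place of 0.14, -0.14 and -0.29, Jund had 0.14 in place of 0.43 at passage 18 against 13 and 0.43 in place of 0.73 at passage 18 against 14, with a slope of 0.05 in place of 0.11, and 3 factors in place of 2 passed 2-fold at passage 18 against 14. Leaving out each culture in turn, as values with no test, the slope per passage ranged from -1.39 to 0.52 for Fos, -0.07 to 0.14 for Fosl1, -0.20 to 0.56 for Fosl2, -0.64 to 0.18 for Jun, -0.29 to 0.18 for Jund, -0.27 to 0.30 for Atf3 and -0.80 to 0.19 for Egr1. The sign turned without passage 18 for all 7, and also without passage 14 for Egr1 (-0.01). No paired analysis was possible because the samples form 1 group.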
